A study of Arabidopsis thaliana with 18 samples.

Results

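FRP-treated ft was compared with FRP-treated wild type across all genes, from 3 libraries of each, which are 6 of the 18 libraries of the series. FRP is a single photoperiod of 24 h enriched in far-red light, given to Arabidopsis plants grown in short days for 42 days. The ft plants carried the ft-10 allele, which the study's methods describe as null, and both genotypes are labelled Col-0. Both groups had received FRP, so the comparison asks how plants with and without FT differ after the same light treatment. The untreated libraries of both genotypes (3 each, sampled without FRP) are used only where stated. Raw counts from the 3 FRP-treated libraries of the tfl1 mutant, whose allele the methods describe as severe, are given for some genes. The tfl1 libraries otherwise enter only the fits of all 18 libraries. The labels call the tissue shoot apices. The methods describe pooled inflorescence shoots harvested after leaves and roots had been removed, so each library pools many shoots and cell types, and in such bulk samples fewer cells of a type and less RNA per cell cannot be told apart. Nothing in the labels says that replicates came from separate growth batches, and p-values then measure the spread between these libraries only.

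FT is the mobile florigen. It is made in the phloem companion cells of leaves under inductive light, moves to the shoot apex and acts there with the bZIP factor FD on genes of floral fate. TFL1 is a close relative that acts with FD in the opposite direction. Light enriched in far-red also lowers active phytochrome, which in shade responses frees PIF factors and raises auxin and growth genes.

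FT itself (chr1:24331373-24333999, plus strand, TAIR10.1) had 36, 27 and 28 counts in FRP-treated ft and 0 in each FRP-treated wild-type library. Untreated ft had 11, 17 and 22 counts and untreated wild type 0 in all 3 libraries. The counts therefore separated the genotypes in all 12 libraries, with the few reads in the mutant and not in the wild type, a difference that was at least 7.49-fold (a floor of 3 counts per wild-type library). They did not show loss of the transcript, and in a leafless sample the wild type gave no counts to lose. Whether the reads come from the mutant allele was not tested. Within 50 kb of FT 18 genes were tested, of which 3 were higher and 5 lower in ft (2 and 3 with trends on transcript length and GC content removed), where 25.5% and 24.2% of all genes were. GLC was at 2.31 and PP2-A5 at -2.08 on the log2 scale.

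Libraries held 20470477 to 34457807 counts on genes in the treated groups. Spearman correlations ran from 0.916 to 0.965 between ft and wild-type libraries and were at least 0.988 within a genotype. Replicate 3 stood between the others in both groups. In wild type it was fitted by a mix of 51.4% of replicate 1 and 48.6% of replicate 2 with a mean squared deviation of 1.15 times the counting variance over 20129 genes, where a value of 1 would be counting error alone. The deviation was 7.70 from replicate 1 and 6.35 from replicate 2. In ft the mix was 41.7% and 58.3%, and the deviation was 1.36, against 10 and 4.90. Replicate 3 lay between replicates 1 and 2 for 61.8% of genes in ft and 60.6% in wild type. Each other replicate lay between its partners for 16.9% to 21.2%. The labels describe no pooling, the cause was not tested, and p-values from 3 replicates may be too small if replicate 3 is no separate sample. Results from replicates 1 and 2 alone are therefore given over all genes and for some of the lists and genes. Elsewhere the values come from all 6 libraries only and carry this limit.

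**Figure D1:**
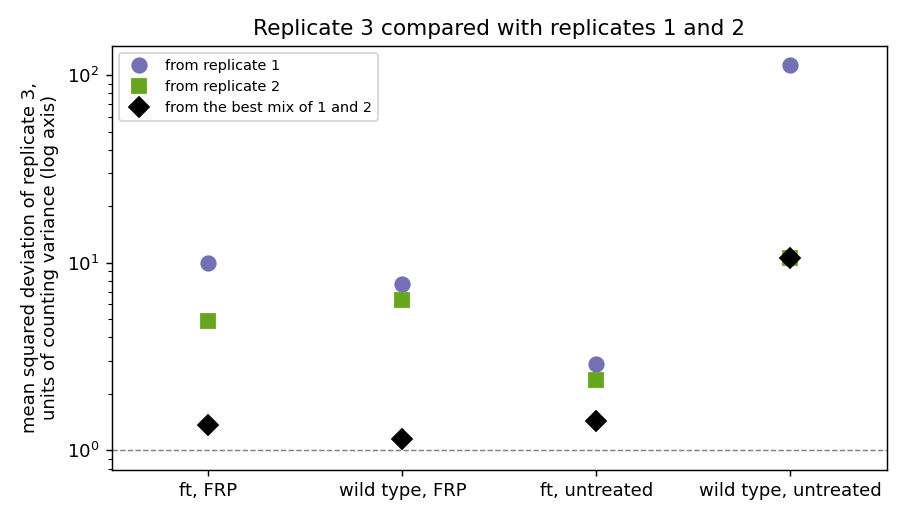
Mean squared deviation of replicate 3 from replicate 1 (circles), from replicate 2 (squares) and from their best mix (diamonds), in units of counting variance on a log axis, for the 4 groups of ft and wild type. The diamonds of FRP-treated ft (1.36) and FRP-treated wild type (1.15) lie near the dashed line at 1, and that of untreated wild type (10.6) does not.

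Of 20503 genes tested, 5219 (25.5%) were higher and 4965 (24.2%) lower in ft at an adjusted p of at most 0.005 by edgeR's quasi-likelihood test, together 49.7%. The libraries of the genotypes did not overlap for 15562 tested genes (75.9%), every called gene among them, so non-overlap is the common case here. Of the called genes, 1359 were at least 2-fold higher and 1254 at least 2-fold lower. The difference ran with transcript length. The median log2 fold change of ft over wild type was 0.63 in the shortest of 10 classes of length and -0.78 in the longest, where 76.8% were lower, and the rank correlation with length across genes was -0.565. With smooth trends on length and GC content removed, 4107 genes were higher and 3299 (16.1%) lower of 20436, together 36.2%, and the medians of these classes were 0.10 and -0.04. In both fits, 3199 (15.7%) were higher and 2384 (11.7%) lower, and 62 genes were called in opposite directions. What sets the length trend was not tested, so both values are given below, first without and then with removal of the trends.

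**Figure D2:**
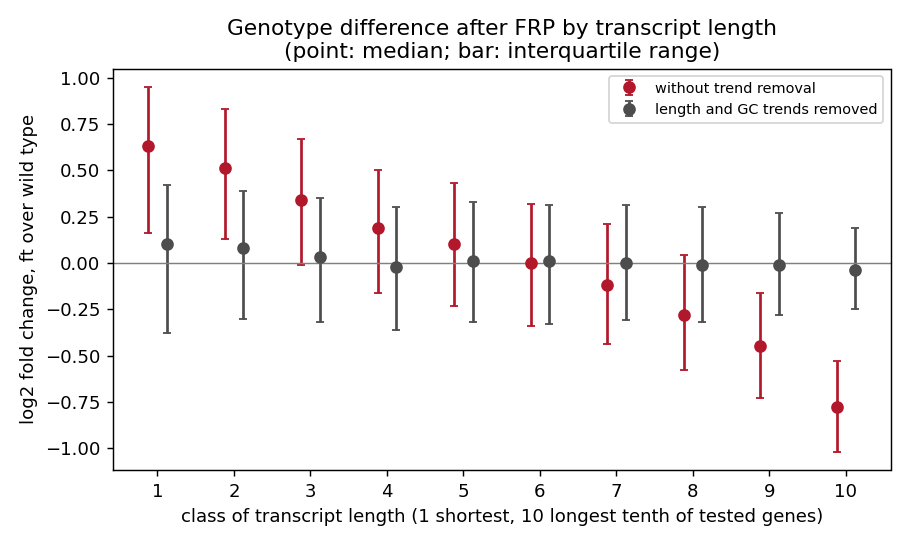
Median and interquartile range (bars) of the log2 fold change of FRP-treated ft over FRP-treated wild type in 10 classes of transcript length, from shortest to longest, of equal numbers of tested genes. Without trend removal (red) the medians fall from 0.63 to -0.78, and with length and GC trends removed (grey) they run from 0.10 to -0.04.

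With replicates 1 and 2 alone, 13 of 20504 genes (0.0634%) passed 0.005, and 75 (0.367%) with the trends removed. The number at an unadjusted p under 0.05 was 11127, and DESeq2 called 2564 higher and 2659 lower at 0.005 from the same 4 libraries. At an adjusted p of at most 0.05, edgeR gave 4572 higher (22.3%) and 4524 lower (22.1%), or 3315 (16.2%) and 2640 (12.9%) with the trends removed. All 5583 genes called in both fits of 6 libraries kept their direction with 4, and 5113 of them (91.6%) were at most 0.05. Counts of list members from these 4 libraries use that threshold.

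Genes of the leaf photosynthesis list, fixed as markers of green leaf tissue, were higher in ft without exception. All 23 passed in both fits, where 15.7% of all genes were higher in both. Their median log2 fold change was 1.1 (0.90 with the trends removed) beside 0 (0.01) over all genes. With replicates 1 and 2 alone 22 of the 23 were higher, and 23 with the trends removed. Sums over lists are scaled over the 12 libraries of both genotypes, and values of single genes over the 6 treated ones. The summed level of the list was 19900, 17500 and 18200 CPM (counts scaled to library size) in ft and 9920, 6920 and 8310 in wild type. Leaf remnants and a higher level within shoot cells cannot be told apart, and the part of either in this result was not tested.

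LHCB1.1, a chlorophyll-binding protein of the photosystem II antenna, stood at 346, 285 and 311 CPM in ft and 85.8, 48.9 and 69.6 in wild type. No ft library came near a wild-type one. Its log2 fold change was 2.2 ± 0.19 (SE, n = 3 per genotype, adjusted p = 8.24e-05), or 1.96 ± 0.17 with the trends removed. LHCB6, of the same antenna, had 551, 465 and 489 CPM in ft and 202, 134 and 161 in wild type (1.60 ± 0.14, then 1.33 ± 0.13). LHCB1.3, at a higher level, had 5900, 5240 and 5530 against 2710, 1970 and 2280 (1.26 and 0.99). RBCS2B, a small subunit of Rubisco, had 35.7, 28.8 and 28.8 against 10.9, 3.03 and 7.12, the wild-type libraries spreading over 3-fold (2.13 ± 0.33, then 1.74 ± 0.30). RCA, the Rubisco activase, had the smallest difference of the list without trend removal, 0.50 ± 0.11 (0.64 with the trends removed), and its adjusted p with replicates 1 and 2 alone was 0.062. RCA passed in 2 of 6 fits without 1 library and RBCS2B in 5. LHCB1 and RBCS genes have near-identical copies, and how reads were split between copies is uncertain. The adjusted p of LHCB1.1 from replicates 1 and 2 alone was 0.00667.

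**Figure D3:**
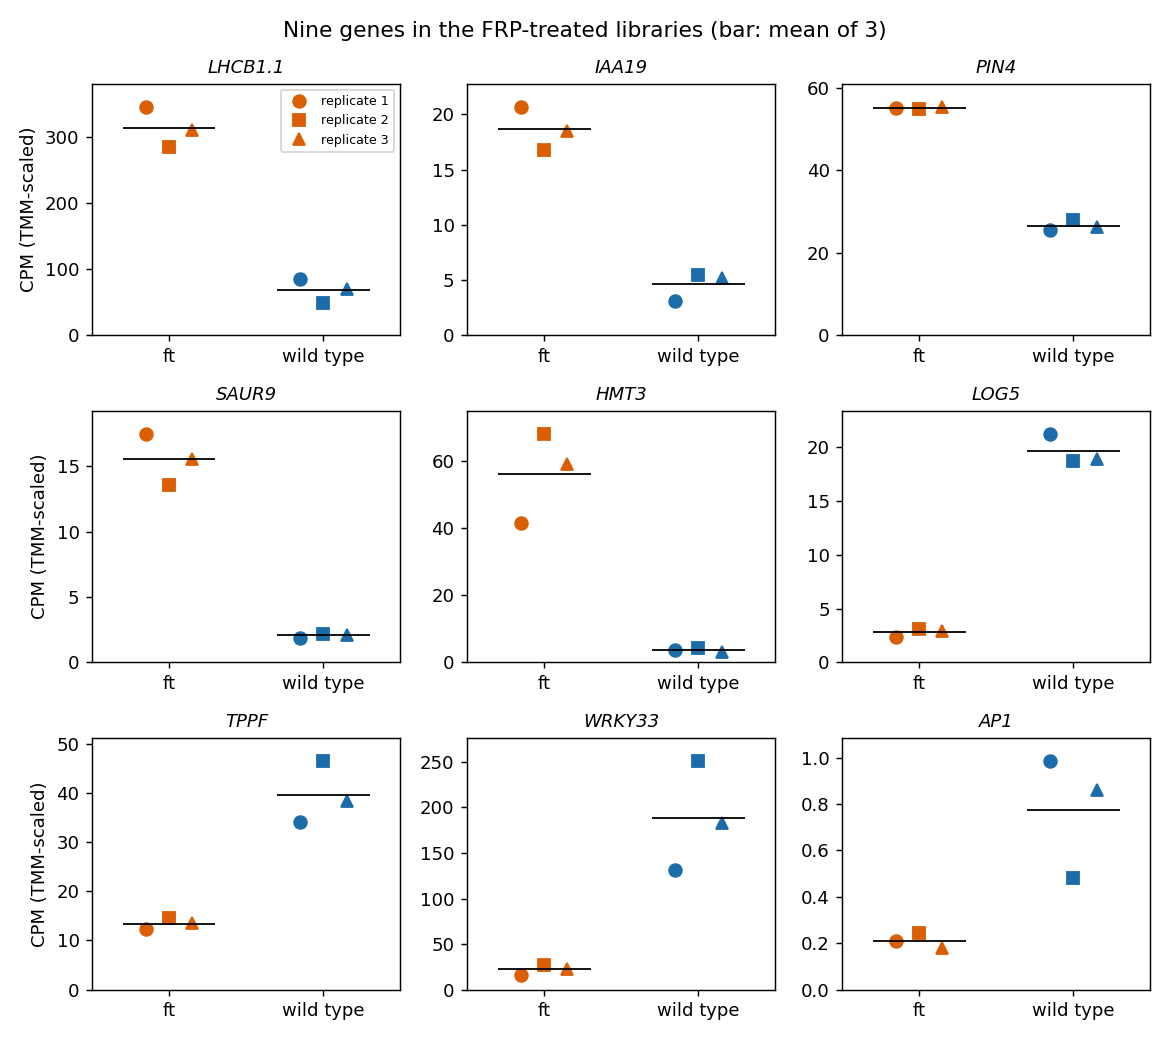
CPM, scaled by trimmed means of M-values (TMM), of 9 genes in the 6 FRP-treated libraries, with symbols for the replicate and a bar at the mean of 3. LHCB1.1, IAA19, PIN4, SAUR9 and HMT3 lie higher in every ft library than in any wild-type library, and LOG5, TPPF, WRKY33 and AP1 lower.

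In the auxin response and transport list 13 of 20 were higher in ft and 3 lower, beside 25.5% and 24.2% of all genes. The median was 1.01 (0.82 with the trends removed, 13 higher and 0 lower, where 4107 of 20436 genes were higher). In both fits 12 were higher, beside 15.7% of all genes. With replicates 1 and 2 alone 13 were higher and 2 lower (13 and 0 with the trends removed). The summed level was 1170, 1110 and 1130 CPM in ft and 927, 923 and 926 in wild type.

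The Aux/IAA genes are repressors that auxin itself induces. IAA19 had 20.7, 16.8 and 18.5 CPM in ft and 3.12, 5.48 and 5.20 in wild type, higher in every ft library (2.02 ± 0.19, adjusted p = 0.000102, then 1.63 ± 0.17). IAA7 had 133, 112 and 121 CPM against 24.1, 38.6 and 30.3 (1.98, then 1.90). IAA4 and IAA29 were also higher, at 1.28 and 2.01 (0.85 and 1.58). Adjusted p-values of these 4 genes with replicates 1 and 2 alone lay between 0.00648 and 0.0107.

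PIN proteins carry auxin out of cells. PIN4 had 55.2, 54.8 and 55.5 CPM in ft and 25.5, 27.9 and 26.3 in wild type, with libraries of a genotype within a few CPM of each other (1.06 ± 0.06, adjusted p = 3.28e-05, then 1.64 ± 0.09). PIN3 and PIN7 were higher by 0.84 and 0.54 (1.27 and 1.13). The transcription factors of the pathway differed from these. MP was lower at -0.78 without trend removal and did not pass with it (-0.12). ARF6 and ARF8 were lower at -0.62 and -0.31, values that became 0.13, which did not pass, and 0.36, which did, so their direction depended on the trends. Of fits without 1 library MP passed in 2 of 6 and ARF8 in 1.

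The SAUR-like family, short growth-related genes that auxin induces, was added after values had been seen. Of 58 tested members 40 were higher and 0 lower, with a median of 1.56 (1.11, 34 higher and 4 lower with the trends removed). Their median length over all members was 812.5 bases. That is in the shortest class, where 48.1% of all genes were higher (21.5% with the trends removed). The summed level was 732, 617 and 658 CPM in ft and 335, 359 and 346 in wild type. SAUR9 had 17.5, 13.6 and 15.6 CPM in ft and 1.89, 2.21 and 2.12 in wild type, with no overlap (2.91 ± 0.14, adjusted p = 2.22e-05, then 2.33 ± 0.11). Members sit in clusters of similar sequence, which makes single members uncertain.

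Promoter sequence is shown for genes from the groups described here, 250 bases before the annotated start on the gene's strand, from RefSeq (TAIR10.1). Capitals mark the G-box CACGTG, the I-box GATAAG, the auxin response element TGTCTC and the W-box core TTGAC, on either strand. A match describes the letters only and is not a binding site.
LHCB6 (chr1:5447881-5448130, minus strand): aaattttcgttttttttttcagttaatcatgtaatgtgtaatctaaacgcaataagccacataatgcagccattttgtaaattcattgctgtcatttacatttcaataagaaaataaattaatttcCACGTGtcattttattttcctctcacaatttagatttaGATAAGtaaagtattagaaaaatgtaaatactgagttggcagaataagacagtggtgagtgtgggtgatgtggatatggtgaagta
RBCS2B (chr5:15382072-15382321, minus strand): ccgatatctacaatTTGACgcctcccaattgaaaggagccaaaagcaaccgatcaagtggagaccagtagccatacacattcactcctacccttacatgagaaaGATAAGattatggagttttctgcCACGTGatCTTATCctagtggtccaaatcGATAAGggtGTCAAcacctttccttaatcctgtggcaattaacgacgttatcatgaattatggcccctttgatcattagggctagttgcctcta
IAA19 (chr3:5263751-5264000, plus strand): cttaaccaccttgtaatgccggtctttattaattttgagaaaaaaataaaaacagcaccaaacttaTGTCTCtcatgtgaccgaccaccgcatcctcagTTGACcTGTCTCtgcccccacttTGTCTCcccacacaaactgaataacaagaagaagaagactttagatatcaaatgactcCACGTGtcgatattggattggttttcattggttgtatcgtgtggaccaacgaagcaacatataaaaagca
WRKY33 (chr2:16107985-16108234, plus strand): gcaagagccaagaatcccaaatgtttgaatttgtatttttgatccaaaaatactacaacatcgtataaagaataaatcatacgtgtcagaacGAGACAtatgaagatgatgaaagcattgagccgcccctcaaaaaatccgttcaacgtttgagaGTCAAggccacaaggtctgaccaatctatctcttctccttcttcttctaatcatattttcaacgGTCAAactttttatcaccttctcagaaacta

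Both photosynthesis promoters hold a G-box and an I-box, IAA19 holds 3 auxin response elements, a G-box and a W-box core, and WRKY33 holds 2 W-box cores and an auxin response element. RBCS2B also holds 2 W-box cores. In the photosynthesis list 7 of 23 promoters hold an I-box and 4 a G-box, where 12.2% and 7.34% of 20435 promoters of tested genes do. In the auxin list 4 of 20 hold the auxin response element (10.6% of all) and 10 the W-box core. The W-box core is in 44.4% of all promoters, 47.7% of those of genes lower in both fits and 42.0% of those higher in both.

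Over all genes tested 24.2% were lower without trend removal and 16.1% with it. Of 9 floral meristem and organ identity genes that could be tested, 1 was lower and 0 higher in either fit (medians -0.11 and -0.41). That gene was AP1, a MADS box factor of floral fate and a target of FT and FD. AP1 reached the minimum of 10 counts only in wild type, so it was tested through the group where it is high. AP1 had 7, 8 and 6 counts in ft (0.211, 0.244 and 0.179 CPM) and 24, 10 and 26 in wild type (0.986, 0.480 and 0.861 CPM). The groups did not overlap, and the difference was -1.88 ± 0.35 (adjusted p = 0.00165, then -2.08 ± 0.36). It was 0.0337 with replicates 1 and 2 alone, and 5 of the 6 fits that left out a library lost the call at 0.005. LFY, the floral fate factor, had 1.06, 0.947 and 0.955 CPM in ft and 1.73, 1.2 and 1.69 in wild type, a difference of -0.65 ± 0.20 that did not pass (adjusted p = 0.0189). FUL (-0.29, adjusted p = 0.465) and PI (-1, adjusted p = 0.021) did not pass either.

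Among the relatives of FT and their partners 6 of 8 could be tested. FT itself reached the minimum of 10 counts only in ft, so it was tested through the group where it is high. Besides FT, TFL1 and FDP passed in both fits, both lower. TFL1 had 11, 9.92 and 10.4 CPM in ft and 18.5, 14.3 and 14 in wild type, below wild type in each library (-0.58 ± 0.12, adjusted p = 0.00323, then -1.11 ± 0.12). FDP, a bZIP factor related to FD, was lower at -0.43 (-0.77). FD and TSF, the closest relative of FT, differed by -0.23 and -0.14 and did not pass (adjusted p = 0.0483 and 0.531). Without single libraries TFL1 passed in 2 of 6 fits and FDP in 1 of 6.

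In the list of flowering time integrators and repressors 5 of 17 were higher and 2 lower in each fit (medians 0.22 and 0.03), a share near that of all genes. SNZ and TOE3, AP2-like repressors of flowering, were higher at 1.14 ± 0.12 and 0.92 ± 0.10 (0.97 and 0.82). SNZ had 8.08, 7.11 and 6.56 CPM in ft and 3.41, 3.27 and 3.21 in wild type. TOE1 and the repressor SVP were higher by 0.29 and 0.32 (0.62 and 0.25), each in 2 of 6 fits without 1 library (largest adjusted p 0.0268 and 0.0142). AGL42, a MADS box gene related to the integrator SOC1, was lower at -0.45 (-0.75). SOC1 had 667, 533 and 656 counts in ft and 643, 437 and 704 in wild type, whose libraries were smaller, and passed only with the trends removed (-0.34, adjusted p = 0.0251, then -0.66, adjusted p = 0.00143). AGL24 was higher at 0.32, in 4 of 6 such fits, and not with the trends removed (0.03).

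Of 19 clock and photoperiod genes 9 were lower and 1 higher, beside 24.2% and 25.5% of all genes, with a median of -0.29. With the trends removed 3 were lower and 3 higher (median -0.06), a share near the 16.1% of all genes that were lower. Clock levels depend on the hour of sampling. CCA1, a morning factor of the clock, had 28.4, 36.2 and 32.5 CPM in ft and 72.5, 72.0 and 70.9 in wild type, less than any wild-type library in each (-1.15 ± 0.09, adjusted p = 6.70e-05, then -0.73 ± 0.05). PRR9 and PRR3, pseudo-response regulators, were lower at -1.23 and -0.63 (-1.16 and -0.36), PRR9 in 2 of 6 fits without 1 library and PRR3 in all 6. ELF4, of the evening complex, was higher at 0.93 ± 0.08 (0.40), and LUX of the same complex passed only with the trends removed (0.46, then 1.15). GI and CO, which link the clock to FT in leaves, were lower at -1.13 and -0.86, and neither passed with the trends removed (-0.36 and -0.39). CO passed in 2 of 6 fits without 1 library. With replicates 1 and 2 alone 6 of the list were lower and 1 higher, or 2 and 2 with the trends removed.

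In light and shade signalling 6 of 18 were higher and 6 lower (median -0.13), beside 25.5% and 24.2% of all genes. With the trends removed 8 were higher and 3 lower (median 0.24), where 4107 of 20436 genes were higher and 3299 (16.1%) lower. PAR2 and PAR1, atypical helix-loop-helix proteins that restrain shade growth, were higher. PAR2 had 16.2, 13.4 and 15.3 CPM in ft and 3.29, 3.70 and 3.44 in wild type, well apart in every library (2.11 ± 0.11, adjusted p = 2.65e-05, then 1.61 ± 0.09). PAR1 was at 1.56 (1.06), and HFR1, of the same kind, at 0.76 (0.45). PIL1, an early gene of the shade response, was lower, with 15.5, 15.1 and 14 CPM against 41.0, 27.0 and 34.6 (-1.21 ± 0.14, then -1.42 ± 0.15). PIF4 and HY5, factors that promote and restrain elongation, were both higher, at 0.66 and 0.67 (0.99 and 0.41), while PIF7 was lower at -1.63 (-1.53) from under 1 CPM in both genotypes. The photoreceptor gene PHYB was lower at -1.09 and did not pass with the trends removed (-0.25). PHYA went from -0.68 to 0.24, and COP1, a ubiquitin ligase of light signalling, was lower in both (-0.59 and -0.25).

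In the cytokinin list 5 of 16 were higher and 7 lower, beside 25.5% and 24.2% of all genes. With the trends removed 4 were higher and 5 lower, where 4107 of 20436 genes were higher and 3299 lower. The medians of the 2 fits were -0.31 and -0.06. LOG5 makes active cytokinin from its riboside phosphates. It had 2.32, 3.08 and 2.95 CPM in ft and 21.2, 18.7 and 18.9 in wild type, one of the larger differences in any list (-2.82 ± 0.12, adjusted p = 2.02e-05, then -3.00 ± 0.13). LOG5 was among the 13 genes that passed 0.005 with replicates 1 and 2 alone (adjusted p = 0.00476). IPT3, an earlier enzyme of cytokinin synthesis, was lower at -0.78 (-0.83). The type-A response regulators, which restrain the response, included 3 that were higher in both fits, namely ARR16 at 2.26 ± 0.23 (2.18), ARR9 at 1.07 (0.91) and ARR4 at 0.65 (0.60). ARR10, a type-B activator, was lower at -1.03 (-0.83), and the receptor gene AHK3 at -0.87 did not pass with the trends removed (-0.04).

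Trehalose-6-phosphate is a sugar signal, made by TPS1 and removed by TPP phosphatases. Of 17 genes 8 were lower and 2 higher in both fits, beside 11.7% and 15.7% of all genes. The medians were -0.27 and -0.29, and the count of higher genes was 7 with the trends removed, where 4107 of 20436 genes were higher. TPPF had 12.3, 14.5 and 13.5 CPM in ft and 34.0, 46.5 and 38.4 in wild type, without overlap (-1.56 ± 0.12, adjusted p = 6.87e-05, then -1.73 ± 0.11). TPPG and TPPD were lower at -0.96 and -0.86 (-1.03 and -1), and TPPA was higher at 0.56 (0.72). TPS1 was lower at -1.31 (-0.39), and the class II members TPS5 and TPS9 went to opposite sides, -0.90 and 0.45 (-0.29 and 0.95), TPS9 in 1 of 6 fits without 1 library. With replicates 1 and 2 alone 8 were lower and 2 higher, or 6 and 6 with the trends removed.

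Sugar-related markers did not move as a set, with 1 of 8 higher and 2 lower, beside 25.5% and 24.2% of all genes. GPT2, a glucose-6-phosphate carrier of plastids, had 2.5, 1.56 and 1.73 CPM in ft and 22.6, 8.69 and 16.0 in wild type (-3.03 ± 0.36, adjusted p = 0.00023, then -2.99 ± 0.36). APL3, a subunit of the starch synthesis enzyme ADP-glucose pyrophosphorylase, had 46.0, 49.3 and 48.6 CPM against 121, 107 and 114 (-1.25 ± 0.07, then -1.11 ± 0.06). SEN1, a gene of dark and sugar-starved tissue, was higher at 1.47 (1.15) from about 1 to 3 CPM. All 3 held an adjusted p of at most 0.0126 with replicates 1 and 2 alone, and at most 0.0294 with the trends removed.

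The strigolactone and bud dormancy list had 5 of 12 lower and 2 higher, beside 24.2% and 25.5% of all genes. With the trends removed 4 were lower and 2 higher, and the medians of the 2 fits were -0.46 and -0.43. SMXL7 and SMXL8 are the repressors that strigolactone signalling degrades, and D14 is its receptor. SMXL7 had 118, 172 and 148 CPM in ft and 342, 402 and 365 in wild type (-1.34 ± 0.13, then -0.67 ± 0.07), and SMXL8 was at -1.36 (-0.77). The trends took about as much as remained of these 2 long genes' differences. D14 was higher at 0.77 (0.60). HB53, a homeodomain gene of bud arrest, was lower at -1.19 (-1.58).

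**Figure D4:**
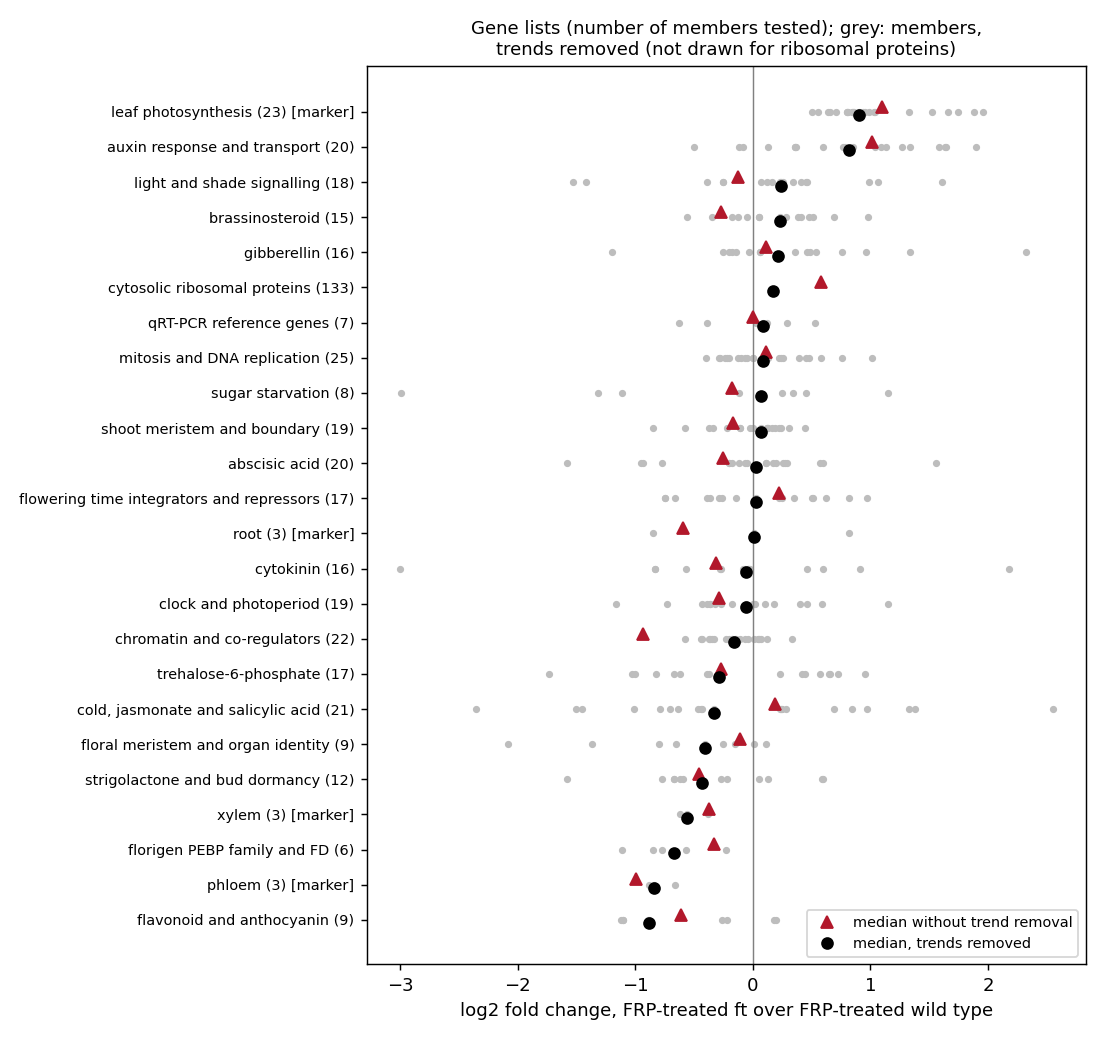
Log2 fold change of FRP-treated ft over FRP-treated wild type for the gene lists without the families added later, with the number of members tested. Red triangles are medians without trend removal, black circles medians with length and GC trends removed, and grey dots are members. The photosynthesis (0.90) and auxin (0.82) medians lie highest of the lists drawn with the trends removed, and the chromatin median moves from -0.93 to -0.16.

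Other hormone lists had members on both sides. Without trend removal 25.5% of all genes tested were higher and 24.2% lower. With it 4107 of 20436 were higher and 3299 (16.1%) lower. Of the gibberellin list 4 of 16 were higher and 1 lower in each fit, the share of higher genes being near that of all genes. GID1C, a gibberellin receptor, and the DELLA repressors RGL3 and GAI were higher at 0.94, 1.12 and 0.44 (0.96, 1.34 and 0.76). GA2OX6, which inactivates gibberellin, was lower at -0.95 (-1.2) and passed in 2 of 6 fits without 1 library. Without trend removal values in the gibberellin list ran from -0.95 to 2.61, so the named members do not include the highest. Of 15 brassinosteroid genes 2 were higher and 7 lower, or 6 and 1 with the trends removed. BES1, the pathway's transcription factor, was higher at 0.65 (0.98), and CPD, a biosynthetic enzyme, at 0.62 (0.69). The receptor gene BRI1 reversed from -0.43 to 0.38, passing in both. The abscisic acid list had 5 of 20 higher and 8 lower (3 and 4), with values from -1.41 to 1.91 without trend removal. Among them were XERICO, a RING protein, at 0.93 (0.57), and AFP2, which binds ABI5, at -0.96 (-0.93).

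In the list of cold, jasmonate and salicylic acid genes 7 of 21 were higher and 3 lower, beside 25.5% and 24.2% of all genes. With the trends removed 6 were higher and 6 lower. JAZ proteins are repressors of jasmonate signalling that jasmonate itself induces, and they differed among themselves. JAZ10 had 138, 88.3 and 108 CPM in ft and 23.7, 12.7 and 20 in wild type (2.56 ± 0.24, adjusted p = 0.000104, then 2.55 ± 0.25). JAZ9 was higher at 1.53 ± 0.07 (1.38), and JAZ1 was lower at -1.35 ± 0.19 (-1.50). The cold-induced COR15A and COR15B were higher at 1.24 and 1.59 (0.97 and 1.33). PR2, a glucanase induced by salicylic acid, had 19.8, 19.0 and 18.8 CPM in ft and 33.2, 62.9 and 44.9 in wild type, the wild-type libraries being the more spread (-1.29 ± 0.20, then -1.45 ± 0.21).

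The WRKY and TIR-NBS families were added after values had been seen. Of 52 WRKY genes, transcription factors of stress and defence, 15 were lower and 3 higher, beside 24.2% and 25.5% of all genes, and 34 did not pass (19 lower and 4 higher with the trends removed). Their median was -0.39 (-0.38). WRKY33, a factor of defence against fungi, had 16.6, 26.9 and 23.0 CPM in ft and 131, 251 and 183 in wild type, well above ft in every library (-3.09 ± 0.26, adjusted p = 8.33e-05, then -2.99 ± 0.25). PAD3, the last enzyme of camalexin synthesis, was at -3.14 ± 0.62 (-3.13) and passed in 2 of 6 fits without 1 library (largest adjusted p 0.0121), and CML37, a calmodulin-like protein, at -3.16 ± 0.25 (-3.39). These 3 were picked after their values had been seen. In untreated wild type WRKY33 had 3532, 155 and 121 counts, and the high library, replicate 1, stood apart from the other two throughout. Of 80 TIR-NBS resistance genes, 62 were lower and 0 higher (median -1), and 26 lower and 3 higher with the trends removed (median -0.28), when most did not pass. The family's median length was 3885.5 bases, in the longest class, where 76.8% of all genes were lower (12.4% with the trends removed).

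Of the flavonoid and anthocyanin list 3 of 9 were lower and 0 higher, beside 24.2% and 25.5% of all genes. With the trends removed 4 were lower and 0 higher, and the medians of the 2 fits were -0.61 and -0.88. TT8, a regulator of the pathway, was lower at -1.22 ± 0.14 (-1.10), and DFR, an enzyme of it, had 36.9, 41.5 and 39.1 CPM in ft and 100, 57.6 and 73.4 in wild type (-0.98 ± 0.18, then -1.12 ± 0.18). The wild-type DFR values overlapped no ft value and spread by nearly 2-fold, and DFR passed in 3 of 6 fits without 1 library.

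The tissue label was checked by markers. STM, a homeobox gene of the shoot meristem, had 261, 247 and 253 CPM in ft and 173, 233 and 201 in wild type and did not pass (0.33, adjusted p = 0.0208). KNAT1 and KNAT2, class I homeobox genes of the stem and meristem, were lower at -0.85 ± 0.12 and -0.54 (-0.85 and -0.58). In the shoot meristem and boundary list 7 of 19 were lower and 0 higher, beside 24.2% and 25.5% of all genes. With the trends removed 3 were lower and 1 higher. The 2 anther and tapetum markers summed to at most 0.287 CPM in the treated libraries. The root marker sum of 134 to 290 CPM came almost wholly from PYK10, a beta-glucosidase, at 261, 288 and 272 CPM in ft and 132, 192 and 156 in wild type on the same scaling (0.80, then 0.82, and 5 of 6 fits without 1 library). Of 3 xylem markers 1 was lower (2 with the trends removed), and 0 were lower in both fits. All 3 phloem markers were lower in both fits, beside 11.7% of all genes. The sum of SUC2, APL and SEOR1, genes of companion cells and sieve elements, was 84.5, 126 and 107 CPM in ft and 187, 239 and 211 in wild type. SUC2, a sucrose carrier, had 45.5, 65.9 and 55.9 against 91.3, 131 and 109 (-0.99 ± 0.16, adjusted p = 0.000991, then -0.88 ± 0.15). SUC2 and SEOR1 lost the call without replicate 3 of either genotype. Their part in the other differences was not tested.

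Cell division genes were mixed, with 5 of 25 higher and 6 lower, beside 25.5% and 24.2% of all genes. With the trends removed 5 were higher and 0 lower, where 4107 of 20436 genes were higher and 3299 lower. CDKB1;2 and CYCB1;4, mitotic kinase and cyclin, were higher at 1.15 and 0.73 (1.01 and 0.76). MCM3, a replication helicase subunit, was at -0.89 and did not pass with the trends removed (-0.40). Chromatin and co-regulator genes, which are long, were lower for 19 of 22 (median -0.93), and 7 with the trends removed (median -0.16, 6 in both fits). Their median length was 3905.5 bases, in the longest class, where 76.8% of all genes were lower (12.4% with the trends removed). The remodelling ATPases SYD and BRM, from which wild type had about 300 and 200 CPM, were at -1.39 and -1.26 and did not pass with the trends removed (-0.15 and -0.18). SDG8, a histone H3 methyltransferase, and SWN, of Polycomb, were lower in both (-1.42 and -1.06, then -0.43 and -0.44), and HDA19, a deacetylase, passed only with removal (0.23, then 0.33). Cytosolic ribosomal proteins, which are short, were higher for 91 of 133 and lower for 5 (median 0.58). With the trends removed 48 were higher and 15 lower (median 0.17). Their median length was 948.5 bases, in a class where 53.1% of all genes were higher (23.8% with the trends removed). Of 7 genes used as references in PCR, UBQ10 was lower in both fits at -0.74 (-0.63), ACT7 differed by 0.00 ± 0.05 (0.03), and UBC21 by 0.64 (0.12, not passing).

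The 12 highest and the 12 lowest genes were those with the largest differences that passed in both fits, had a mean count of at least 50 and did not overlap between genotypes. Of these 24 genes, 5 (AT3G44006, AT4G12520, AT1G12540, HB52 and WAK3) reached the count minimum in 1 genotype only. AT3G44006, an uncharacterized gene at chr3:15796133-15796837, led them, with 443, 299 and 386 counts in ft and 0 in every wild-type library, at least 92.7-fold higher. It also had 211, 206 and 226 counts in untreated ft, and 0 in untreated wild type and in FRP-treated tfl1. It was the one gene with at least 30 counts in every ft library and no more than 3 counts in any wild-type library, and no gene met the reverse. Next came AT3G22275, annotated as a jasmonate ZIM-domain protein, with 31.1, 10.9 and 19.7 CPM in ft and 0.616, 0.288 and 0.629 in wild type (5.27 ± 0.51, then 4.58 ± 0.46). FRP-treated tfl1, which carries wild-type FT, had 961, 855 and 821 counts of it, beside 1031, 356 and 660 in ft and 15, 6 and 19 in wild type.

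CA1, a chloroplast carbonic anhydrase, had 8.5, 6.20 and 7.31 CPM in ft and 0.575, 0.192 and 0.265 in wild type (4.39 ± 0.29, then 4.87 ± 0.34). FRP-treated tfl1 had 12, 6 and 7 counts of CA1, as low as wild type with 14, 4 and 8. HMT3, a homocysteine methyltransferase, had 41.5, 68.1 and 59.1 CPM in ft and 3.57, 4.32 and 3.21 in wild type (3.94 ± 0.21, adjusted p = 2.99e-05, then 3.86 ± 0.22). RAP2.6, an ethylene response factor, and HB52, a homeodomain factor, were at 4.32 and 3.78 (3.94 and 3.20). AT4G12520, a lipid-transfer-like protein, had 116, 86 and 94 counts in ft and 0, 6 and 0 in wild type. Its value of 5.14 became 9.52 without wild-type replicate 2, the one wild-type library with counts. The rest of the 12 were AT1G12540 (4.33), a helix-loop-helix factor, AT3G50570 (3.62), AT3G50560 (3.54), AT1G49500 (3.5) and AT1G11850 (3.43).

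On the wild-type side WAK3, a kinase that contacts the cell wall, had 2, 2 and 0 counts in ft and 16, 224 and 166 in wild type. The ratio of summed counts per library size was 134 (51.9 to 494, exact 95% interval, counting error only), and wild-type replicate 1 lay far below its partners. WAK3 and AT4G38560 each passed in 2 of 6 fits without 1 library, and AT5G22520 in 5. AT4G09875 and AT1G75945, both uncharacterized, were the most even. AT1G75945 had 0.392, 0.428 and 0.418 CPM in ft and 13.1, 12.9 and 13.7 in wild type (-4.99 ± 0.13, adjusted p = 4.47e-06, then -5.71 ± 0.13), and 5, 15 and 13 counts in FRP-treated tfl1 beside 13, 14 and 14 in ft. AT4G09875 had 7, 14 and 9 counts in ft, 302, 294 and 464 in wild type and 18, 13 and 19 in tfl1 (-5.51 ± 0.20, then -5.21 ± 0.19). Both were past 0.005 with replicates 1 and 2 alone (adjusted p = 0.00361).

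AGO3, an ARGONAUTE protein of small RNA silencing, had 0.271, 0.489 and 0.537 CPM in ft and 4.89, 15.7 and 9.57 in wild type (-4.52 ± 0.50, then -3.79 ± 0.50). NAC061, a NAC factor, was at -3.37 (-3.75). AT4G38560 (-4.48), AT5G22520 (-4.38), AT3G28580 (-4.32), AT5G40000 (-3.95) and AT3G22910 (-3.75) were lowest in wild-type replicate 1 among the wild-type libraries, as AGO3 and WAK3 were. AT1G50750 and AT1G50745, neighbouring genes of the plant mobile domain family, were at -3.40 and -3.34 (-3.65 and -3.49), even within wild type and spread within ft. Adjusted p-values of the 24 genes with replicates 1 and 2 alone ran from 0.00361 for AT1G75945 to 0.0229 for AT4G38560.

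The genotypes were also compared without FRP, where untreated wild-type replicate 1 stood apart, with a Spearman correlation of 0.934 with replicate 3, where replicates 2 and 3 reached 0.995. With all 6 untreated libraries 1 gene of 20258 (0.00494%) passed by edgeR, 1995 had an unadjusted p under 0.05, and DESeq2 called 74 higher and 59 lower. Without that replicate 9498 genes (46.4%) passed, 4928 higher and 4570 lower. The difference between the genotype effect with and without FRP passed for 3717 genes (17.8%) over all 12 libraries and for 12662 (60.7%) without it. Of genes called with FRP and also without it once that replicate was left out, 6109 had opposite directions and 275 the same, or 2648 and 328 with the trends removed. Untreated libraries are separate samples from the treated ones, and the length trend was reversed in them (rank correlation with length 0.528, and 0.588 without replicate 1).

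**Figure D5:**
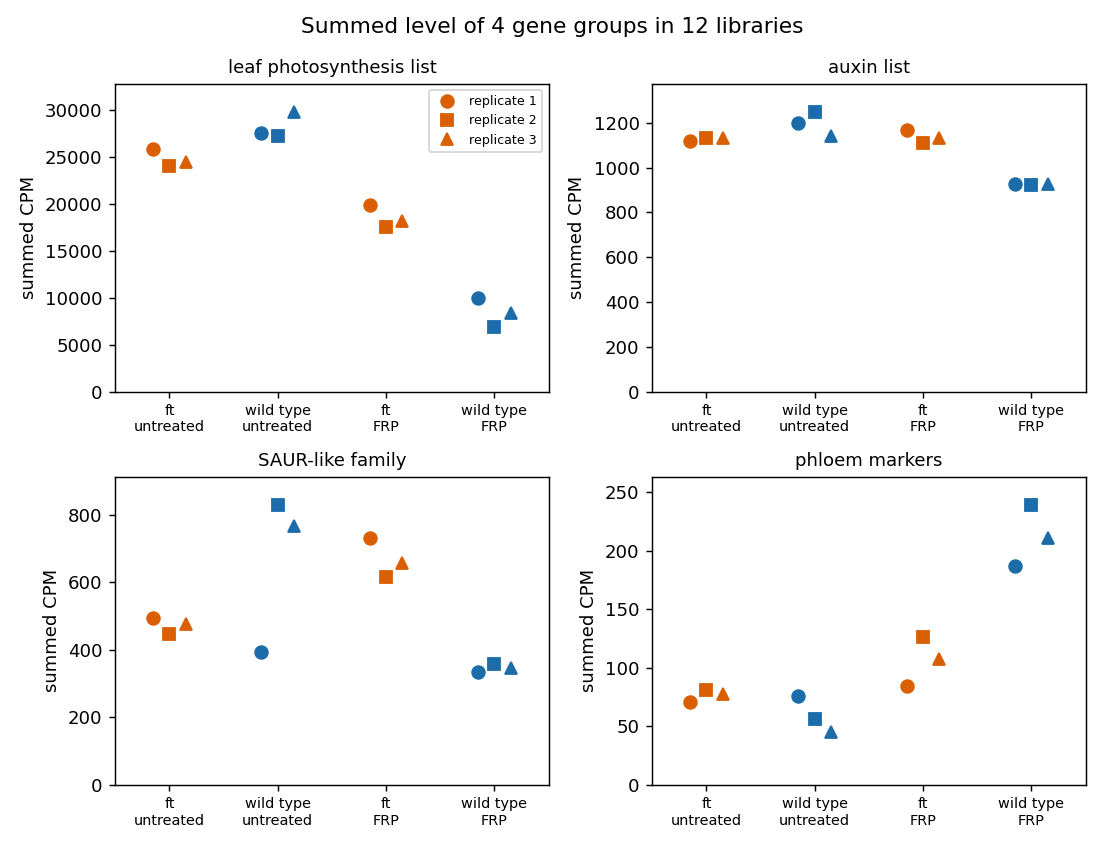
Summed CPM of 4 gene groups in each of the 12 libraries of ft (orange) and wild type (blue), untreated and FRP-treated, with symbols for the replicate. The photosynthesis sum of FRP-treated wild type (6920 to 9920) lies below the other 3 groups, and the phloem sum of FRP-treated wild type (187 to 239) above them.

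In untreated plants the photosynthesis sum was 25800, 24000 and 24400 CPM in ft and 27500, 27200 and 29800 in wild type, so wild type was above ft without FRP and below it with FRP. LHCB6 was at 1.75 ± 0.24 in the test of the difference (adjusted p = 0.000737), and at 1.88 without untreated wild-type replicate 1. IAA19 was at 2.40 ± 0.29 (adjusted p = 0.000469), LOG5 at -2.50 ± 0.23 (adjusted p = 0.000152) and TPPF at -1.71 ± 0.17 (adjusted p = 0.000206). WRKY33 depended on the replicate, at -0.81 (adjusted p = 0.634) with it and -4.17 (adjusted p = 1.55e-06) without. All of these genes were described here with their difference after FRP known. That difference enters this test, so the values are no independent result. The phloem sum in untreated plants was 70.6, 81.0 and 77.4 CPM in ft and 76.2, 56.5 and 45.1 in wild type.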

How the data were processed

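RNA from shoots of short-day-grown Arabidopsis was sequenced as single-end reads. Raw read counts per gene were used as deposited. The authors trimmed the reads, aligned them to TAIR10 with STAR 2.5.3a and then assigned them to Araport11 genes, ignoring strand, with HTSeq 0.7.2, so overlapping and antisense genes cannot be told apart. The files list 37336 genes, of which 37051 matched the RefSeq annotation (TAIR10.1) used for names, transcript lengths and coordinates. Rows that name no gene were left out of totals. In the 6 treated libraries reads without a gene came to 0.655% to 0.752%, ambiguous reads to 2.92% to 3.15% and reads not unique to 4.34% to 7.07%. These percentages are relative to all counts, with the rows that name no gene included. The study chose 2 replicates per condition after PCA, and replicate 2 of both treated groups was not among them.

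Genes reaching 10 counts in 3 or more treated libraries were scaled by TMM and tested with edgeR 4.0.16 (limma 3.58.1, R 4.3.3) by the quasi-likelihood test with Benjamini-Hochberg adjustment over all tested genes and a threshold of 0.005. In a second fit natural splines with 5 degrees of freedom, one on GC content and one on transcript length, were fitted per library and removed as offsets. Depth, 20470477 to 34457807 counts on genes, limits single genes at few counts, and the intervals and floors given cover counting error only. Members and lists were chosen with earlier results of these data known. Named genes were FT, the 12 highest and 12 lowest genes past the threshold in both fits whose counts averaged 50 or more and whose groups did not overlap, genes on in 1 genotype and off in the other, and list members with known roles. The SAUR, WRKY and TIR-NBS families, WRKY33, PAD3, CML37 and SAUR9 were added after values had been seen. Alternatives were other libraries, leaving out each library, DESeq2 1.42.0, other scalings and filters, and a replicate block. The fits on replicates 1 and 2 alone and those without the intermediate libraries were added after seeing the data. The test was tried on simulated counts.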

Additional observations from a re-analysis of the deposited data

Results flagged for a closer look

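The genotype difference with FRP differed from that without FRP, by edgeR's interaction test over 12 libraries (3 in each of 4 groups), for 9 of the 24 genes with the largest differences, where 17.8% of all 20896 genes passed. The log2 difference of differences was 4.11 for HMT3, 4.30 for HB52, 3.36 for AT3G50570, 3.29 for AT3G50560, 4.61 for AT1G49500 and 4.04 for AT1G11850. It was -2.73 for AT4G09875, -4.61 for AGO3 and -4.61 for AT3G28580. Scaled over the 12 libraries, HMT3 had 191, 195 and 189 CPM in untreated ft and 161, 289 and 213 in untreated wild type, and 41.4, 66.3 and 57.6 in ft and 3.57, 4.29 and 3.21 in wild type after FRP, so both genotypes were lower with FRP and wild type more so. AT1G49500 had 24.6, 22.6 and 25.3 CPM in untreated ft and 21.9, 72.7 and 63.8 in untreated wild type, where replicate 1 stood apart. AT4G09875 was lower in ft also without FRP, at 0.321, 0.295 and 0.230 CPM against 2.09, 1.81 and 2.13. AT3G50560 and AT3G50570 lie near each other on chromosome 3. The 24 genes were chosen for their difference after FRP, which enters the interaction, so the count is no independent result. Leaving out each of the 12 libraries in turn, 7 of the 9 passed 0.005 in every fit, and AGO3 and AT3G28580 in 2 of 12 (largest adjusted p 0.0131 and 0.017).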

How the results depend on the processing

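Genes higher and lower in FRP-treated ft numbered 5219 and 4965 with all 6 libraries. Leaving out 1 library gave 3202 to 4952 higher and 2722 to 4650 lower, with the lowest counts without replicate 3 of either genotype. The lower count was 3299 with length and GC trends removed and 3084 with all 18 libraries in one fit, and all 18 with the trends removed gave 3177 and 2284. At least 2-fold gave 1359 and 1254. Replicates 1 and 2 alone gave 9 and 4, or 53 and 22 with the trends removed. With the trends removed, leaving out 1 library gave 1996 to 4552 higher and 1440 to 3552 lower: 2791 and 1936 without ft replicate 1, 3400 and 2346 without ft replicate 2, 2347 higher without ft replicate 3, 3199 lower without wild-type replicate 2 and 1451 lower without wild-type replicate 3. Of 122 genes named in the text and called, 93 stayed past 0.005 in all 6 fits that left out 1 library and 29 did not, mostly without replicate 3 of either genotype. PHYA, BRI1, BRM and SYD lost the call without either, PIF7 and TPPA without that of wild type and TPPG without that of ft. Each of these 6 fits kept replicate 3 of at least 1 genotype. With replicates 1 and 2 alone, 119 of the 122 genes were not past 0.005. Genes on in ft and off in wild type were 25, and the reverse 1, with an off limit of 10 counts, and 2 genes were on in untreated ft.

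Deviations from the group mean correlated little between libraries of the same replicate number across genotypes (0.0864, 0.106 and 0.00234). With replicate 3 near a mix of the others, its deviation is small and those of replicates 1 and 2 mirror each other. These values therefore cannot decide whether the numbers pair the libraries. With the replicate number as a block 4535 were higher and 4189 lower, and 3708 and 2733 with the block and the trends removed. The block gave 914 and 330 genes for the difference between treated and untreated, 844 and 437 with the trends removed, and 0 for untreated higher genes. With the trends removed PHYA changed sign to 0.24, ARF6 to 0.13, ARF8 to 0.36 and BRI1 to 0.38. With the block as well they were 0.25, 0.13, 0.36 and 0.38, and from replicates 1 and 2 alone 0.26, 0.15, 0.39 and 0.40.

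For the difference between treated and untreated, leaving out 1 library gave 673 to 6280 higher and 178 to 6382 lower, the highest without untreated wild-type replicate 1. The study's 8 libraries gave 5973 and 6099, removal of the trends 1489 and 854, DESeq2 4189 and 3841, removal without that replicate 5840 and 3860, and leaving out the intermediate libraries as well 4176 and 4563. For the untreated genotypes leaving out 1 library gave 0 to 4928 and 0 to 4570, the study's 4 libraries 4333 and 3682, removal of the trends 6 and 3, DESeq2 74 and 59, removal without replicate 1 2190 and 3708, and leaving out the intermediate library as well 3935 and 3123. Causes were not tested. At these depths genes under about 10 counts were not tested.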
